A study of Homo sapiens with 4 samples.

Results

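HSC3 is an established human squamous carcinoma line of the oral tongue. Its transcripts were compared between cells transfected with miR-489 and cells transfected with miR-504, 2 of the 4 hybridisations of the series. On each array the RNA of the miRNA transfectant carried the dye Cy5 and the RNA of HSC3 cells given a control miRNA carried Cy3, and all RNA was taken 72 h after transfection. The other 2 arrays hold the same pair of transfections in FaDu, a line of a hypopharyngeal squamous carcinoma, each against a FaDu control transfectant. No miR-489 sample was hybridised against a miR-504 sample, so the 2 miRNAs were compared through their controls. For each gene the ratio of Cy5 to Cy3 was taken on the log2 scale and centred on the array's median, and the miR-504 value was subtracted from the miR-489 value. A negative difference therefore means a lower level after miR-489 than after miR-504. Each condition had 1 array, without a dye swap or a replicate, so the differences have no test. A gene was counted as lower or higher where the difference reached 2-fold, which is 1 on the log2 scale.

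A microRNA guides an Argonaute complex to partly complementary sites, mostly in the 3′ untranslated region of a transcript, and the bound transcript is repressed and often degraded. Pairing of the seed, the bases near the 5′ end of the microRNA, decides most of this choice, so microRNAs with different seeds are expected to lower different transcripts. Some of the transcripts that change are direct targets and others change downstream of them, and an array does not separate the one from the other.

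The mature sequences are shown because the 2 transfected miRNAs differ in their seeds. The labels do not name the arm of either hairpin, and the arms below are the RefSeq entries that carry the plain names in older nomenclature. Seed bases 2 to 8 are in capitals, and the coordinates are those of the GRCh38.p14 assembly.
hsa-miR-489-3p (chr7:93483947-93483968, minus strand): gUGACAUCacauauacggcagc
hsa-miR-504-5p (chrX:138667760-138667781, minus strand): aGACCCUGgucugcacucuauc
Both are 22 nucleotides long. Their seeds hold the same base at 2 of the 7 positions. No probe or 3′ untranslated sequence was searched for seed matches, and sites of this kind were not analysed here.

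The array held 41000 probes, of which 22421, standing for 16820 genes, were well above background in both dyes on both HSC3 arrays. The level of a gene is that of its brightest probe. All 10 of the squamous epithelial markers examined were well above background in the control channel, among them the basal keratins KRT5 and KRT14 and the transcription factor TP63. Their summed control signal was 173816 on the miR-489 array and 183090 on the miR-504 array. CD14 was the only 1 of 5 leukocyte markers to pass, with control signals of 57.5 and 43.5, and COL1A1 the only 1 of 5 fibroblast markers, with 43.8 and 40.9. DCN, another fibroblast marker, did not pass on both arrays, with a control signal of 14.5 and a transfectant signal of 7.5 on the miR-489 array against 74 and 82 on the miR-504 array, and its part in the results was not tested. None (0) of the 5 endothelial or the 5 muscle markers passed. Probes printed at least 5 times on the array gave a standard deviation of 0.10 (log2) between repeat spots in the difference, over 203 probes. This covers spot error alone.

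The RNA labelled as HSC3 control transfectant was not alike on the 2 arrays. The control signal was at least 2-fold lower on the miR-489 array for 195 genes (1.16% of those measured) and at least 2-fold higher for 197 (1.17%), together 392 (2.33%, against 0.831% between the 2 FaDu controls). It was at least 8-fold lower for 13 genes and at least 8-fold higher for 3. The genes described here were picked after their values were seen. Those with the largest gap are genes of the cornified envelope, the cross-linked protein layer that squamous cells build as they mature.

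SPRR2G, a small proline-rich envelope protein, had a control signal of 81 on the miR-489 array and 16806 on the miR-504 array. Its transfectant signals, 88.5 after miR-489 and 22000.3 after miR-504, were apart in the same direction, by −7.92 on the log2 scale against −7.49 for the controls. SPRR3, another protein of that family, had control signals of 201 and 17216 and transfectant signals of 335 and 18337.5. KRT1, the type II keratin of the suprabasal layers, had control signals of 68 and 6179.5 and transfectant signals of 49.5 and 8442.5. These genes were high on the miR-504 array and low on the miR-489 array in both dyes. LCE3D, SPRR2D, KRTDAP, SPRR2C, CRCT1 and PI3, which are epidermal envelope or differentiation genes, had control signals between 30.0-fold and 42.6-fold lower on the miR-489 array. SPRR1B had control signals of 919.5 and 15893. The calcium-binding protein S100A8 was 7.63-fold lower and the immediate early factor EGR1 7.97-fold lower.

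In the other direction NNMT, which methylates nicotinamide, had control signals of 2541 on the miR-489 array and 244.5 on the miR-504 array. CSF3, the granulocyte growth factor G-CSF, had 345 and 42.5. The control signal of ANGPTL4, a regulator of lipoprotein lipase, was 8.04-fold higher on the miR-489 array. IL6, an inflammatory cytokine, had 965 and 215 as means of 10 spots each. TNC, a matrix glycoprotein, and the chemokine gene CXCL2 had 4.16-fold and 3.95-fold higher control signals there.

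The transfectant channel moved with the control channel. Of the 392 genes, 391 had a Cy5 difference of the same sign and 286 of these were at least 2-fold apart in Cy5 as well, where 5.8% of all genes were. Across the 16820 genes the 2 gaps had a Pearson correlation of 0.73, as a description across genes that share their arrays and are not independent. After division by the control, 27 of the 392 genes were at least 2-fold apart in the difference of ratios, a larger share than the 2.26% of all genes. SPRR2G was at −0.40, SPRR3 at 0.51 and SPRR1B at 0.13. KRT1 at −1.05 and CRCT1 at −1.68 were exceptions. The labels describe both controls in the same words, and what set them apart was not tested.

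**Figure D1:**
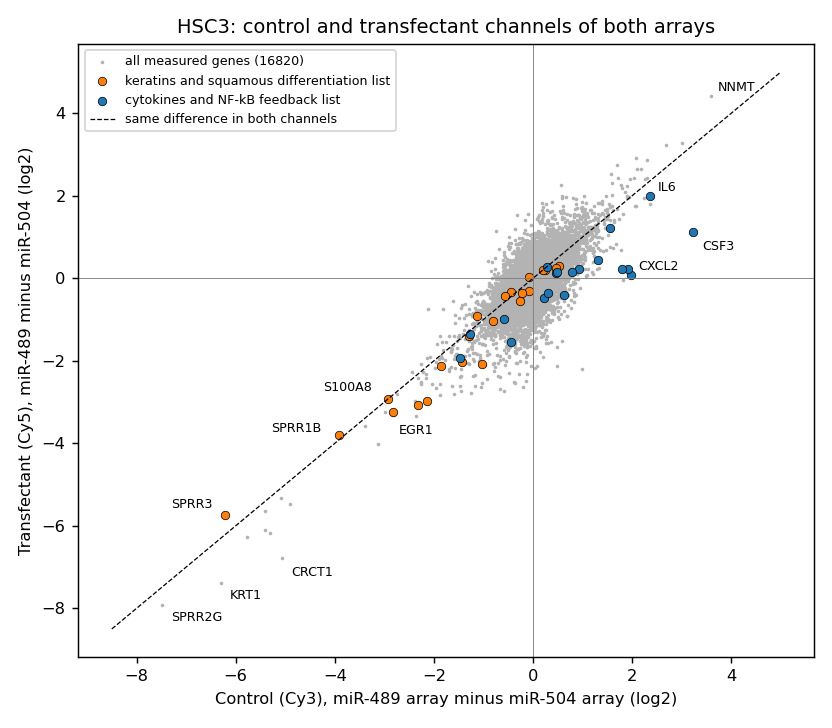
Each point is 1 gene measured in HSC3. The horizontal axis is the log2 gap between the 2 control (Cy3) signals, the vertical axis the log2 gap between the 2 transfectant (Cy5) signals, both as miR-489 array minus miR-504 array, and orange and blue points are the listed squamous and cytokine genes. SPRR2G and SPRR3 lie near the dashed line of equal gaps at the lower left, and KRT1 lies further below it. CSF3 and CXCL2 lie below the line at the right.

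After the ratio to the control was taken, more genes were lower after miR-489 than higher. The difference reached 2-fold downwards for 278 genes (1.65%) and upwards for 102 (0.606%), together 380 (2.26%). At least 4-fold was reached by 16 genes downwards and by 0 upwards. The median over all genes was 0.02 and the standard deviation 0.36 (log2). The SD of the gap between the 2 controls was 0.40. The counts rest on the treatment of dim spots: with a normexp background correction, whose offset of 50 is added to every signal and weighs most on dim ones, they were 99 and 50. The median control signal was 173 for the 278 lower genes and 179 for the 102 higher genes, against 421 over all genes.

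The 2 arrays entered the difference of the 278 lower genes unequally. Low values on the miR-489 array and high ones on the miR-504 array are what the selection asks for, and the counts on each array and by Cy5 alone describe the selected genes and no more. On the miR-489 array 195 of them were at least 2-fold below the control, against 5.92% of all genes, and the median log2 ratio of the 278 was −1.23. On the miR-504 array their median ratio was 0.06, with 14 at least 2-fold above the control and 5 at least 2-fold below, against 2.19% and 3.79% of all genes. The remaining 70 reached 2-fold on neither array. By Cy5 alone 269 kept the sign and 206 reached 2-fold, as 3.75% of all genes did in that direction. Controls were at least 2-fold apart for 22 of the 278, against 2.33% of all genes. Of 80 further probes for 61 of these genes, 67 had the same sign and 35 reached 2-fold.

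For the 102 higher genes, selected the other way, the log2 ratios had medians of −0.82 after miR-504 and 0.37 after miR-489. At least 2-fold was reached downwards on the miR-504 array by 34 and upwards on the miR-489 array by 17, the latter against 3.01% of all genes, and 51 reached it on neither. By Cy5 alone 98 kept the sign and 57 reached 2-fold, as 2.05% of all genes did in that direction. Controls were at least 2-fold apart for 5 of the 102, against 2.33% of all genes. Of 26 further probes for 22 of these genes, 23 had the same sign and 9 reached 2-fold.

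**Figure D2:**
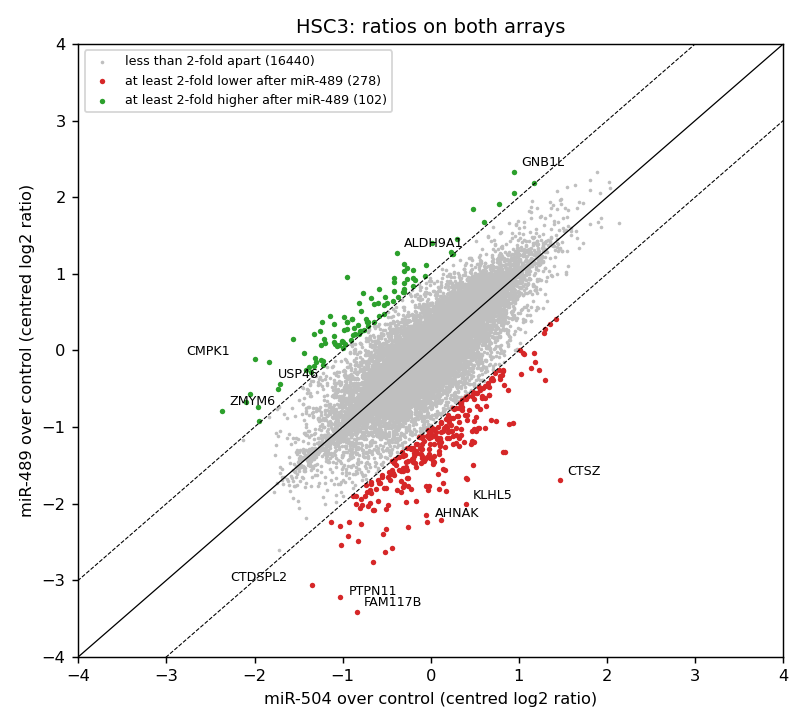
Each point is 1 gene, with its centred log2 ratio over the control after miR-504 on the horizontal axis and after miR-489 on the vertical axis. The solid line marks equal ratios and the dashed lines a 2-fold difference, with 278 genes (red) below and 102 (green) above them, and most red points lie below −1 on the vertical axis.

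CTSZ, a lysosomal cysteine protease of the cathepsin family, had the largest difference. Its signal was 370.5 after miR-489 against a control of 803.5, and 1756 after miR-504 against a control of 468. The 2 ratios lay on opposite sides of the control, at −1.69 and 1.47, and their difference was −3.16, or 8.95-fold lower. The controls themselves differed by 0.98 (log2), and by Cy5 alone the difference was −2.21. In FaDu the difference was −1.66. MRM1, a mitochondrial rRNA methyltransferase, had the same form, with ratios of −1.32 and 0.82 and a difference of −2.14.

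KLHL5, a BTB and kelch domain protein, had a signal of 89 after miR-489 against a control of 240, and 569 after miR-504 against 319. Its difference was −2.40, and its 3 probes ran from −2.40 to −1.41. FAM117B had 25.5 against 182 after miR-489 and 113.5 against 150 after miR-504. Both of its ratios were below 0, at −3.41 and −0.84, and the difference was −2.57. OBSL1, a cytoskeletal adaptor, had ratios of −2.63 and −0.52, and A2ML1, a protease inhibitor of the epidermis, −2.76 and −0.66. Their signals after miR-489 were dim, at 24.5 and 33.5. The differences of OBSL1 and A2ML1 were −2.10 and −2.10, and −0.92 and −1.07 with normexp, where that of FAM117B was −1.33. In FaDu the A2ML1 ratios were −2.64 and −2.50, a difference of −0.13.

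AHNAK, a very large scaffold protein, had a signal of 3285 after miR-489 against a control of 10414.5 and 15295 after miR-504 against 11601, a difference of −2.20. Of its other measured probes 2 gave −2.35 and −1.89, and 1 gave 1.72. NF2, the tumour suppressor merlin, had 4781 against 14157 and 18384.5 against 14126, a difference of −2.08. Its 3 other probes, all dimmer, gave −0.26, −0.05 and 0.05. The probes of these genes did not give 1 answer, and which transcript each detects was not tested.

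The remaining genes of the 15 largest falls had small ratios on the miR-504 array and large negative ones on the miR-489 array. TNFRSF6B, a soluble decoy receptor for FAS ligand, had ratios of −1.83 and 0.17. CERK, the ceramide kinase, had a ratio of 0.48 on the miR-504 array and a difference of −1.98, against 0.20 in FaDu, and its second probe gave −0.38. PCOLCE2, an enhancer of procollagen processing, had −1.81 and 0.09. AP1M2, AP1S1 and SUZ12 completed the 15 and are described with their complexes, PTPN11 with its pathway.

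Among the 15 largest rises, most were genes whose signal was below the control after miR-504 and close to it after miR-489. CMPK1, the kinase that phosphorylates UMP and CMP, had a signal of 983.5 after miR-489 against a control of 711.5, and 349 after miR-504 against 1029. Its ratio over the control was −0.11 after miR-489, and the difference was 1.89, or 3.70-fold higher, with 1.98 in FaDu. PRSS23, a secreted serine protease, had 7076 against 4287.5 and 1529 against 3342, a difference of 1.71, and its second probe gave 1.24. USP46, a deubiquitinase, had 333.5 against 247.5 and 117 against 308. Its difference was 1.69, and its other probe gave 1.80.

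COPZ1, a coat protein of vesicles of the Golgi, had ratios of 0.21 and −1.33 and a difference of 1.54, with 1.24 from its second probe. ZMYM6, a zinc finger protein, was low after both miRNAs, with ratios of −0.79 and −2.37, and its lowest probe gave −0.40. CUTC had 0.37 and −1.24, the histone gene H3-5 0.45 and −1.14, and LGMN, the lysosomal protease legumain, 0.34 and −1.10. AKAP7, an anchor of protein kinase A, had −0.57 and −2.05. C3orf52 had 0.43 and −0.98, but its second probe gave a difference of 0.12. For all of these the lower signal was that after miR-504.

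A smaller set was above the control after miR-489. GNB1L, a WD repeat protein, had a signal of 19588 against a control of 2606 after miR-489 and 7397.5 against 2841 after miR-504. It was above the control after both, with ratios of 2.33 and 0.94. ALDH9A1, an aldehyde dehydrogenase of carnitine synthesis, had ratios of 1.28 and −0.39 and a difference of 1.66. HLA-DOB had 1.12 and −0.30, SLC10A7 0.96 and −0.95, and RNF112 0.62 and −0.82. The control signals of these last 3 lay between 44 and 222, below the median of 421.

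**Figure D3:**
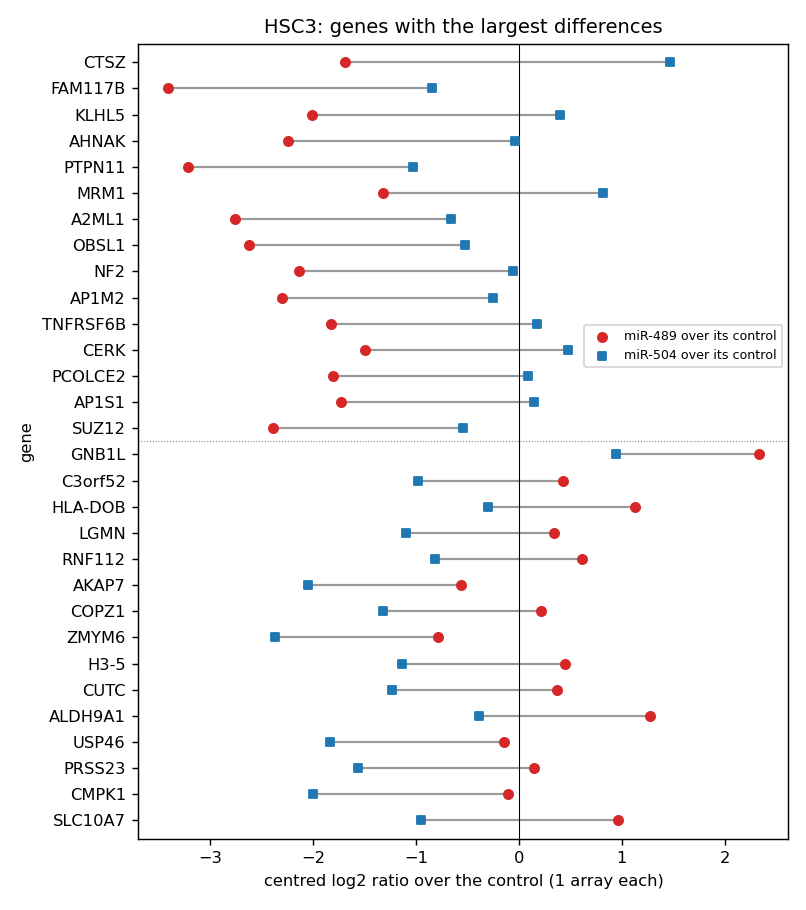
The 15 genes with the largest falls (top) and the 15 with the largest rises (bottom) in HSC3. Circles give the centred log2 ratio over the control after miR-489 and squares that after miR-504, with 1 array each and no error bar. CTSZ lies on opposite sides of 0, whereas PTPN11 and FAM117B are below 0 on both arrays.

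PTPN11 encodes SHP2, the tyrosine phosphatase that couples growth factor receptors to RAS and MAPK signalling. Its brightest probe had a signal of 2346 after miR-489 against a control of 14595, and 10501.5 after miR-504 against 15874. The ratios were −3.21 and −1.04 and the difference was −2.18, or 4.53-fold lower after miR-489. The signal was below the control after both miRNAs by this probe, and further below after miR-489. A probe printed 10 times gave 1593 against 2771 after miR-489 and 5962 against 3582 after miR-504, a difference of −1.67 with a ratio above 0 after miR-504. The last 2 probes were dim, with control signals of 62 to 129, and gave −0.30 and 0.19. The controls of the brightest probe differed by 0.08, and the FaDu difference was −1.96.

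PTPN11 was the only 1 of 23 measured members of the chain from receptor to ERK at 2-fold (background 1.65% lower and 0.606% higher). The next largest was ERBB3, a receptor of the EGFR family, at −0.87. Among 16 measured genes that ERK signalling induces, 0 reached 2-fold and the median was 0.11. Its sign turned with the controls, since by Cy5 alone the median was −0.24 and the median gap between the controls was −0.41. ETV5, an ETS factor, was at 0.74 and SPRED1, an inhibitor of the pathway, at 0.70. EGR1, also in that list, was at −0.22 with a 7.97-fold gap between its controls. The reference genes GAPDH and ACTB had ratios of 0.93 and 1.11 after miR-489 and of 0.86 and 1.03 after miR-504. Their differences were 0.06 and 0.08.

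Genes that the study had listed as reduced by miR-489 were followed in HSC3. That list had been picked on the FaDu miR-489 array and not on the HSC3 arrays, and the same source marks which of its genes hold a predicted miR-489 site. The list holds 53 genes, and 42 were measured on both HSC3 arrays. At least 2-fold lower were 22 of the 42 and higher 0, against 1.65% and 0.606% of all genes. The median difference was −1.09 (quartiles −1.66 and −0.45) and 37 of 42 were below 0. The filter asks for signal after miR-489, so a gene reduced to background would not be among the 42. The 11 unmeasured genes were VGF, CD244, LIN28B, CALHM5, HTR2B, TFAP4, MYO3B, KCTD4, RTL3, BLID and MAGEH1.

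The ratio over the control had a median of −1.64 after miR-489 and −0.62 after miR-504, so the listed genes tended to lie below the control after both. At least 2-fold below the control were 33 of the 42 after miR-489 and 8 after miR-504, against 5.92% and 3.79% of all genes. The direct comparison is therefore smaller than the comparison of miR-489 with its control. In FaDu the median difference was −1.67, and the list had been chosen there.

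Genes with a predicted site stood further apart than those without. With a site, 19 of 26 were at least 2-fold lower and the median difference was −1.36 (quartiles −1.85 and −0.93). Without a site the count was 3 of 16, namely AHNAK, A2ML1 and TOMM20L, and the median was −0.48 (quartiles −0.76 and −0.12). The median ratio after miR-489 was −1.82 with a site and −1.41 without, and after miR-504 it was −0.38 with a site and −0.73 without. Both arrays thus contributed to the gap between the 2 sets. The median control signal was 1481 with a site and 676 without.

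**Figure D4:**
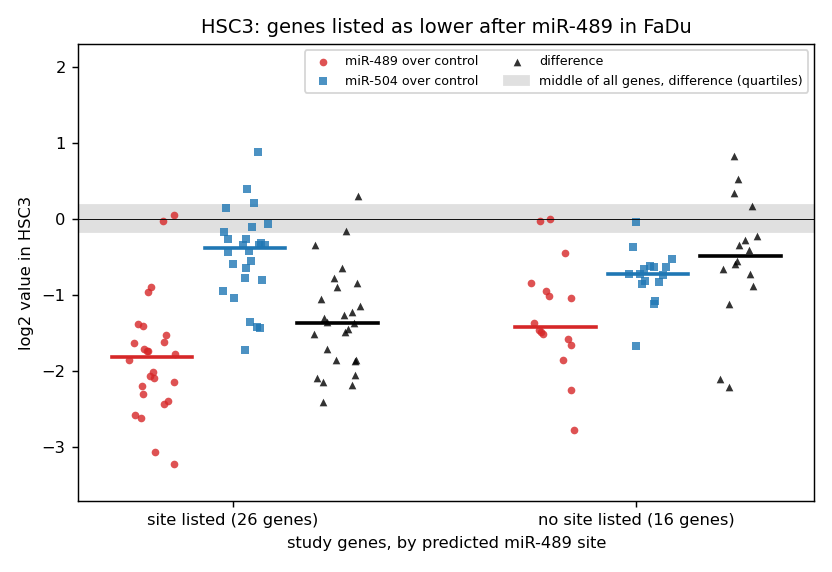
Listed genes measured in HSC3, split into 26 with and 16 without a predicted miR-489 site. Circles are the centred log2 ratio after miR-489, squares that after miR-504 and triangles their difference, with a line at each median and a grey band over the quartiles of the difference of all genes. The triangles of the genes with a site centre on −1.36 and those without on −0.48.

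Beside the genes already described, CFL2, the muscle type of the actin-severing protein cofilin, had a signal of 1345.5 after miR-489 against a control of 1752. After miR-504 it was 4121.5 against 1643, so the 2 ratios were −0.96 and 0.89, on opposite sides of the control, and the difference was −1.85. CTDSPL2, a phosphatase, had 107 against 599 and 443.5 against 833.5, ratios of −3.06 and −1.35. CRIPT, a binding partner of synaptic scaffold proteins, was at −1.51, and ATP1B3, a beta subunit of the sodium pump, at −1.37. The transcript named RP11-11C5.2 had a difference of −2.14, with −0.07 from its second probe.

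CYP1B1, a cytochrome P450, was at −1.48 and ERRFI1, a feedback inhibitor of EGFR, at −1.44, with controls 2.03-fold and 1.72-fold lower on the miR-489 array. OSTM1 at −1.35, CDIPT at −1.30, SPTSSA at −1.26, EFCAB11 at −1.22, ZCCHC4 at −1.14, TOMM20L at −1.12 and HPS3 at −1.05 were the others past 2-fold. With normexp CYP1B1, CDIPT, ZCCHC4, TOMM20L and HPS3 fell short of it, at −0.86, −0.97, −0.73, −0.51 and −0.86. ERRFI1, OSTM1, SPTSSA and EFCAB11 stayed past it. The signal of TOMM20L after miR-489 was dim, at 39. MARCKS, an actin-binding substrate of protein kinase C, was short of 2-fold at −0.89, with ratios below the control on both arrays, at −2.61 and −1.72. The cell cycle kinase CDK6 was likewise below on both, at −1.78 and −1.43, with a difference of −0.35. TMEM64 at −0.15 and SLC25A40 at 0.17 were nearest to 0. RTP4, an interferon-induced chaperone, was highest at 0.83, with ratios of −0.84 and −1.67.

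The AP-1 adaptor links clathrin to cargo at the Golgi and endosomes. Of its 8 measured subunits 3 were at least 2-fold lower, against 1.65% of all genes, and the median of the 8 was −0.31. AP1M2, the medium subunit of epithelial cells, had a signal of 336 after miR-489 against a control of 1111 and 1494 after miR-504 against 1314.5, a difference of −2.05. AP1S1, a small subunit, had 432.5 against 959.5 and 1286 against 860, a difference of −1.87 with −2.08 from its second probe. AP1S3, another small subunit, was at −1.03 with ratios of −0.25 and 0.77, while its second probe gave −0.38. AP1M2 and AP1S1 are also in the study's list and are not independent of it.

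Polycomb proteins keep genes silent through marks on histones. Of 19 measured members 3 were at least 2-fold lower, against 1.65% of all genes, all of them parts or partners of the complex that methylates histone H3. SUZ12, a core subunit, had 811 against 2860 after miR-489 and 3383.5 against 3643 after miR-504. Its difference was −1.85, and its other probes gave −0.81 and −0.31. SUZ12 is also in the study's list and is not independent of it. RBBP4, a histone-binding subunit, was at −1.47 with 0.43 from a second probe, and JARID2, an accessory factor, at −1.20. The median of the list was 0.06, close to the 0.02 of all genes.

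Of 19 cytokine and NF-κB feedback genes 6 were at least 2-fold lower and 0 higher, against 1.65% and 0.606% of all genes. The median was −0.63 with 18 of 19 below 0. This result leaned on the controls. CXCL2, a neutrophil chemokine, had a signal of 11131 after miR-489 and 10903.5 after miR-504. Its controls were 14406 and 4195. CXCL1, a related chemokine, had 26881.6 and 23462.2 in the transfectants and 72911.8 and 24155.2 in the controls. The transfectants were thus nearly equal for these genes and the difference lay in the control channel.

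The differences of CSF3, CXCL2, CXCL3 and CXCL1 were −2.08, −1.89, −1.66 and −1.54. By Cy5 alone they had the opposite sign, at 1.11, 0.07, 0.21 and 0.23. LIF, at −1.08, and IL1B, at −1.01, were lower by Cy5 alone too, at −1.56 and −0.41. With normexp LIF was at −0.51 and IL1B at −0.97, both short of 2-fold. Control signals were at least 2-fold higher on the miR-489 array for 7 of the 19 and lower for 2, against 1.17% and 1.16% of all genes. By Cy5 alone the median of the list was 0.14, and in FaDu its median difference was −0.02. A direction for this list cannot be given from these 2 arrays. Over all genes, 13 of the 380 past 2-fold had the opposite sign by Cy5 alone.

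Keratins and squamous differentiation genes showed the widest gap between controls and little in the difference. Of 22 measured members 11 had controls at least 2-fold lower on the miR-489 array, against 1.16% of all genes. The median control gap was −0.92. The median difference was −0.15, with 1 gene at least 2-fold lower, against 1.65% of all genes. This was PKP1, a desmosomal plaque protein, at −1.02, with control signals of 231 and 543. KRT6B was at −0.80, with controls of 2291.5 and 11652.

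Elsewhere single genes reached 2-fold, where 1.65% of all genes were that much lower. TNFRSF10B, the TRAIL receptor DR5, was at −1.17, with 0.06 from a second probe, and was the only 1 of 19 in its list. ATF3, a stress-induced factor, was at −1.07, 1 of 20 in the stress response list. SLC7A11, the cystine transporter, was at −1.13, 1 of 16 antioxidant genes, with its controls 1.22 (log2) apart in the same direction. HK2, a hexokinase, was at −1.06, 1 of 16 glycolysis genes. Each of these was lower after miR-489. With normexp ATF3 was at −0.81 and SLC7A11 at −0.67, short of 2-fold, while TNFRSF10B was at −1.12 and HK2 at −1.01.

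No member reached 2-fold (0) in the other lists. Over all genes 1.65% were lower and 0.606% higher, so 0 in lists of 12 to 30 measured genes does not set them apart. Cholesterol synthesis genes had the highest median at 0.42, with 3 of 20 below 0, and IDI1, an isomerase of that route, was at 0.77. Interferon-stimulated genes had a median of 0.23 in HSC3 and −0.50 in FaDu, and this gap between the lines was not tested. OAS3 was at 0.85 and IFI44 at 0.76. Mitosis genes had a median of 0.18, with TTK at 0.69 and MKI67 at 0.54. G1 cyclin and RB genes were at 0.09, with SKP2 at 0.66 and RB1 at 0.49.

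Proteasome genes had a median of 0.02, and PSMA1 was highest at 0.90. DNA replication genes were at 0.05, with PCNA at 0.55 and GINS4 at −0.54. Genes of the microRNA pathway were at 0.03, with TNRC6B at 0.34 and AGO3 at 0.27. TGF-β genes were at −0.05, apoptosis regulators at −0.07, integrin and matrix adhesion genes at −0.12 and genes of the epithelial-mesenchymal transition at −0.16. ITGA6, an integrin subunit, was at 0.62. By Cy5 alone the medians of the mitosis, G1 cyclin and RB, epithelial-mesenchymal, Polycomb and apoptosis lists had the other sign, at −0.04, −0.08, 0.07, −0.18 and 0.02.

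Some genes were well above background in 1 transfectant only. Their fold is a bound on the ratio over the control, in which the dim Cy5 signal was set to the lowest one well above background, or to its own where that was higher. It was taken after normexp with an offset of 50, loess and Aquantile normalisation, and the offset draws the folds of dim spots towards 1. On this scale 0 of 53 genes dim after miR-489 and 0 of 28 dim after miR-504 had a bound of 2-fold or more, which leaves larger differences possible. TMC7 was at least 1.62-fold lower after miR-489, WNK4 at least 1.47-fold, PLPPR5 at least 1.41-fold and MAGI1 at least 1.21-fold. SOST was at least 1.24-fold higher, MYB at least 1.24-fold and SHOX2 at least 1.21-fold.

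The FaDu arrays share no RNA with the HSC3 arrays and show where the HSC3 difference recurred. In FaDu, 2.3% of measured genes were at least 2-fold lower and 0.951% higher. Of the 232 genes lower in HSC3 that FaDu also measured, 215 had the same sign there and 109 reached 2-fold. The 109 were 47.0% of the HSC3 genes and 33.5% of the 325 FaDu genes measured in both lines. Of the 85 higher genes, 78 had the same sign and 43 reached 2-fold, 50.6% of the HSC3 genes and 28.9% of the 149 in FaDu. Past 2-fold in opposite directions were 0 of the lower and 1 of the higher genes, APOL4. Among the 15 largest falls, CTSZ, MRM1, A2ML1, OBSL1, TNFRSF6B and CERK were nearer to 0 in FaDu, at −1.66, −1.14, −0.13, −0.97, −0.67 and 0.20. These genes were picked for their HSC3 values, and that selection alone favours values nearer to 0 in the other line. KLHL5, PTPN11, AP1M2, AP1S1 and SUZ12 were close to their HSC3 values, at −2.65, −1.96, −2.19, −1.84 and −2.10, as were the rises CMPK1 at 1.98 and PRSS23 at 1.76. The rise of AKAP7 was 1.48 in HSC3 and 0.52 in FaDu. Its HSC3 signal after miR-504 was dim, at 39, and with normexp its HSC3 difference was 0.72. With 1 array a condition, a difference between the lines was not tested.

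**Figure D5:**
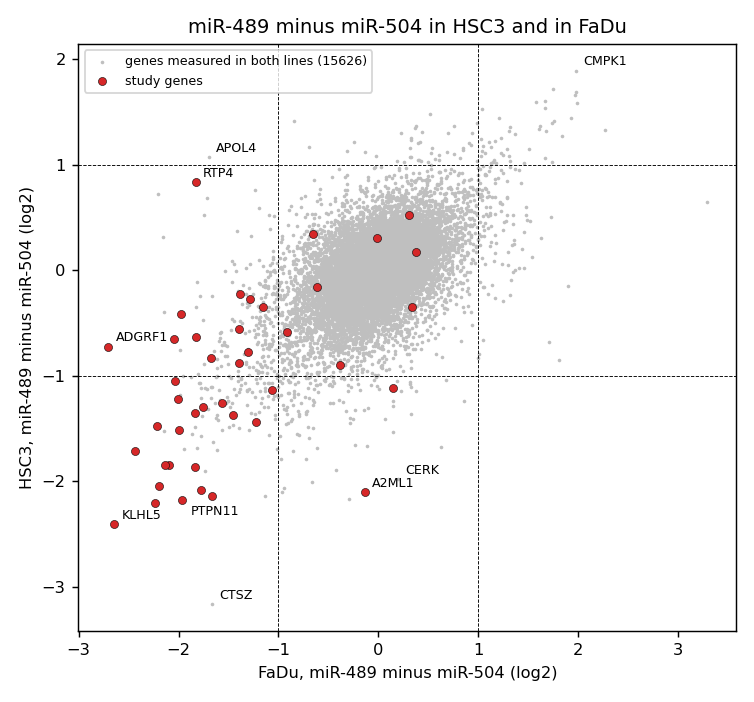
The log2 difference of miR-489 minus miR-504 in FaDu (horizontal) and HSC3 (vertical) for 15626 genes measured in both lines, with the listed study genes in red and dashed lines at 2-fold. KLHL5 and PTPN11 lie far down in both lines, CTSZ and A2ML1 lower in HSC3 than in FaDu, and APOL4 is past 2-fold in opposite directions.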

How the data were processed

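Samples were grouped by the cell line and transfected miRNA in their labels. The authors deposited scanner output with unnormalised median intensity per spot and background, made with Feature Extraction 9.5.3.1 per the file headers. The deposited log10 ratio and the deposited table of log10 ratios were identical (largest difference 0) and served as an alternative. The deposited scores of 0 or 1 for signal well above background and outliers were used as filters. The methods of the study also name ScanArray and DNASIS, log2 ratios of background-subtracted median signal and a global normalisation, which were followed here. The genome build of the files is not given in the sources used here. All 4 arrays were on 1 slide and in 1 scan, so neither could be fitted.

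Control and outlier spots (126 and 136) were left out, no spot (0) was saturated, and log2 Cy5 over Cy3 was centred on its median (0.58 and 0.44 removed). Cy3 was well above background at 59.2% and 58.5% of 43376 spots and Cy5 at 62.6% and 62.3%. Precision is limited by the 1 array a condition. Of 41000 probes 23434 were named through RefSeq accessions, 2317 by symbol and 1043 by synonym, and 14206 kept the name in the file. Calculations used R 4.3.3, limma 3.58.1, Python 3.11.15 and pandas 2.3.3, and were tested on simulated data. Named genes were the 15 largest falls and rises with a gene symbol and the same sign by Cy5 alone, PTPN11, GAPDH, ACTB, study genes past 2-fold or nearest 0, list members past 2-fold (or the top pair), bounds, and genes opposite in the 2 lines. Some genes that this rule names are not reported here. The genes and lists were chosen with earlier results of these data known. The alternatives were other background corrections, normalisations, filters, probe choices and thresholds.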

Additional observations from a re-analysis of the deposited data

Results flagged for a closer look

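APOL4, an apolipoprotein L gene, was the only gene past 2-fold in opposite directions in the 2 lines. The difference of miR-489 minus miR-504 was 1.07 in HSC3 and −1.70 in FaDu. Its signals in HSC3 were dim, at 94.5 after miR-489 against a control of 54.5 and at 72 after miR-504 against 96. The HSC3 difference was 0.60 with normexp and 0.43 by Cy5 alone, both short of 2-fold, and 1.15 with loess. The controls of the 2 arrays differed by −0.61 in HSC3 and by 1.46 in FaDu (log2). The difference between the lines was not tested.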

How the results depend on the processing

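No paired analysis was possible because each HSC3 condition had 1 array, and leaving out a replicate was not possible for the same reason. The counts of genes at least 2-fold lower and higher, 278 and 102, moved most with dim spots. Under normexp they were 99 and 50, under raw signals with no background taken off 108 and 48, and under normexp followed by loess 91 and 37. They came to 96 and 40 for bright probes only and to 2715 and 1864 with no filter on dim probes. By Cy5 alone they were 631 and 345, at 1.5-fold 993 and 607, and at 4-fold 16 and 0. The share of lower genes among those called was 73.2%, and 59.3% with no filter. The median of the study list, −1.09, was −0.85 with normexp, −0.84 on raw signals, −0.97 with loess, −0.82 with both normexp and loess, −1.31 by Cy5 alone, −0.89 with no filter, −1.24 for bright probes, −0.97 as the mean of all probes and −0.69 with the highest probe. The gap between study genes with and without a site, −0.88, was −0.75 with the highest probe. It and the leaving out of genes whose controls differ were alternatives chosen after seeing the data, and the latter changed no count or median by more than the limits used. In each of these the study list stayed below 0.

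Of 892 values for 61 named genes under the alternatives, 638 stayed within the spread of repeat spots, 244 moved with the same sign and 10 changed sign. Some alternatives could hardly move a named gene. With no filter on dim probes, with outlier spots kept and with total-signal centring, all 61 stayed. The deposited ratios and the identical deposited table were both counted. Under normexp 34 of 61 moved, on raw signals 34, under normexp with loess 37 and by Cy5 alone 46. By Cy5 alone CSF3 was 1.11, CXCL1 0.23, CXCL2 0.066 and CXCL3 0.21. With the lowest probe ZMYM6 was −0.40. With the highest probe AHNAK was 1.72, NF2 0.052, PTPN11 0.19, RBBP4 0.43 and TNFRSF10B 0.064. The Cy5 values leave out the control channel, and the cause of the sign changes was not tested.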

Other observations

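Genes past 2-fold were unevenly spread over the control signal. Of the 380, 159 lay in the dimmest signal quartile of measured genes, 100 in the next, 56 in the third and 65 in the brightest, and the median difference in these quartiles was −0.04, 0.03, 0.04 and 0.01.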
